A study of Mus musculus with 13 samples.

Results

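The genes described here are the 10 that make, break down and sense prostaglandin E2 (PGE2) or start leukotriene synthesis, namely Ptgs1, Ptgs2, Ptges, Ptges2, Ptges3, Hpgd, Ptger2, Ptger4, Alox5 and Alox5ap. They were taken by symbol, 10 of the 32285 genes counted, and each symbol was found in the single-cell RNA sequencing (scRNA-seq) counts of 10 tumors of the colon and 3 mucosa samples taken next to them. All of the mice had the genotype ApcMin/+; p16cis/cis, which joins a mutation of the tumor suppressor gene Apc to an engineered epimutation of p16, on the strain C57BL/6J, and all were on the supplemented diet, with added folic acid, vitamin B12, choline and betaine. The 3 mice were 24 weeks old (mouse A, 4 tumors), 23 weeks old (mouse B, 2 tumors) and 20 weeks old (mouse C, 4 tumors), and each gave 1 mucosa sample. No library of another diet or genotype was analysed here, so the comparison open to these data is tumor against mucosa within this genotype and diet. Tumors were dissociated with a tumor dissociation kit and mucosa with EDTA and TrypLE, so the tissue and the dissociation cannot be told apart.

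As background, cyclooxygenases turn arachidonate, freed from membranes by phospholipases, into an unstable prostaglandin, which terminal synthases convert to PGE2. PGE2 acts on nearby cells through G protein-coupled receptors and is inactivated by the dehydrogenase that Hpgd encodes. In a second branch, arachidonate 5-lipoxygenase with its activating protein makes leukotrienes, which draw and activate leukocytes. In the colon, the inducible cyclooxygenase is known for its part in adenoma growth in Apc mutant mice, and its inhibition lowers tumor number in such mice.

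In the order of their roles, Ptgs1 lies at chr2:36230426-36252272 (plus strand) and Ptgs2 at chr1:150100031-150108227 (plus strand) of GRCm38. The synthase genes are Ptges at chr2:30889471-30929863 (minus), Ptges2 at chr2:32395896-32405772 (plus) and Ptges3 at chr10:128058954-128077272 (plus). Hpgd is at chr8:56294585-56321043 (plus), Ptger2 at chr14:44988195-45003820 (plus) and Ptger4 at chr15:5206661-5244187 (minus). Alox5 is at chr6:116410077-116461178 (minus) and Alox5ap at chr5:149264767-149288153 (plus). No other counted gene overlapped any of the 10 on the same strand, while Ptger2, Ptger4 and Alox5ap each overlapped 1 counted gene on the other strand (Gm17173, Ttc33 and Gm19719). The annotation names 1 pseudogene of Ptges3, which is not among the counted genes, so part of its reads may have been lost to or gained from that copy.

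The proximal promoters of Ptgs2, Ptges and Hpgd are shown because Ptgs2 and Ptges were highest in the same class of macrophages and Hpgd changed in the opposite direction between the tissues. Each run holds 300 bases of RefSeq sequence (GRCm38.p6), from 250 before to 50 after the annotated start, on the strand of the gene. Capitals mark matches, on either strand, to 6 motifs. The TATA box was searched as TATAAA and the E-box as CACGTG. The core of the cAMP response element was searched as ACGTCA and the palindrome bound by C/EBP factors as TTGCGCAA. The GC box was searched as GGGCGG and the CCAAT box by the letters of its name.
Ptgs2, chr1:150099781-150100080, plus strand: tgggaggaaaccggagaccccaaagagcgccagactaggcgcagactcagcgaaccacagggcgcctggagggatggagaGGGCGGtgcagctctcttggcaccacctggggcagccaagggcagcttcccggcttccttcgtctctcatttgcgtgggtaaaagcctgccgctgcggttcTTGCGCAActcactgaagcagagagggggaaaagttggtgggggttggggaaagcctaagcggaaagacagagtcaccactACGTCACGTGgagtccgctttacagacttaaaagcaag
Ptges, chr2:30903248-30903547, minus strand: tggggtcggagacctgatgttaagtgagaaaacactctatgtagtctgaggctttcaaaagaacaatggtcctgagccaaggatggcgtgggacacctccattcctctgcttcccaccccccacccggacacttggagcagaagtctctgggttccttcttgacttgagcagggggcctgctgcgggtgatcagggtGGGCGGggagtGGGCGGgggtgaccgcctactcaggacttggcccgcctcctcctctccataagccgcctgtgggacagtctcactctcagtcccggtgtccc
Hpgd, chr8:56294302-56294601, plus strand: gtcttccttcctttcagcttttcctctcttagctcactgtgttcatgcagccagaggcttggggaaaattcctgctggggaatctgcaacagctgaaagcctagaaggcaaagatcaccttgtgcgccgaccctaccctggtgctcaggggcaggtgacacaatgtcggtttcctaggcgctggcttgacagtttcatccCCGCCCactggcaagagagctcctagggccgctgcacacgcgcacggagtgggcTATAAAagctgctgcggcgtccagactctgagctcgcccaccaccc
Positions are given with the annotated RefSeq start as 0. The Ptgs2 run holds the GC box at -170 and the C/EBP-type palindrome at -69. It also holds the cAMP response element core and the E-box at 12 and 16, where they overlap. The Ptges run, which lies within the annotated gene, holds GC boxes at -53 and -42. The Hpgd run holds the TATA box at 4 and a GC box on the other strand at -50. The gene start given above for Hpgd, 56294585, lies downstream of this TATA box, so the annotations differ on where transcription starts. Among all 32851 promoters of this length in the RefSeq table, the C/EBP-type palindrome was in 0.183%, the E-box in 7.15%, the cAMP response element core in 7.51%, the TATA box in 13.6%, the GC box in 35.7% and CCAAT in 37.4%. These matches describe letters in a window and are not measured sites. The table held a promoter for 9 of the 10 genes and none for Alox5ap.

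A tumor library held 57221300 to 93157039 unique molecular identifiers (UMIs) and a mucosa library 84883382 to 116133079. After filtering, 108495 cells remained (85953 from tumors, 22542 from mucosa), with a median of 3565 to 5014 UMIs per cell in tumor libraries and 7540 to 9826 in mucosa libraries. Cells were sorted into classes by fixed marker lists, and a class name ends in -like. Myeloid classes held 44.4% to 66.3% of the cells of a tumor (median 57.5%) and 0.508% to 0.851% of those of a mucosa sample (median 0.543%), while epithelial cells held 16.5% to 26.4% and 51.9% to 76.3%. The epithelial marker list summed to 3264 to 6653 CPM (UMIs of a gene per 1000000 UMIs counted) in tumors and 7706 to 13377 in the mucosa, and the immune list to 3953 to 6126 and 317 to 1028. No cluster was named fibroblast or endothelial by the marker lists, which does not show that such cells were absent. Of 135282 distinct barcodes, 2284 (1.69%) occurred in more than 1 library. The labels call 7 libraries female and 6 male, but in all 13 Xist was at or under 0.126 CPM and the Y-linked genes were at 103 to 129 CPM, so the label was contradicted in 7 libraries and sex was not used. Mucosa replicate 1 (mouse C) stood apart, with 157 absorptive epithelial-like cells (3.19% of its cells) against 1996 and 1342 in replicates 2 and 3, and values without it are given for the calls it decided.

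The first question was how the pathway differed between tumors and mucosa when all cells of a library are summed. Of the 10 genes, 6 rose in tumors (Ptgs1, Ptgs2, Ptges, Ptger2, Alox5 and Alox5ap), 2 fell (Ptges2 and Hpgd) and 2 were not called (Ptges3 and Ptger4), by edgeR's quasi-likelihood test with Benjamini-Hochberg adjustment over all 17381 genes tested and a threshold of 0.05. Over all of those genes 70.3% were called, so 8 of 10 is near the background of this comparison. No tumor overlapped a mucosa library for the same 8 genes, against 53.2% of all genes. The median log2 fold change of all genes was 0.03. The tumors came from 3 mice, so p-values over 10 tumors measure the spread between libraries and not between animals. In such sums, more cells of a type and more RNA per cell cannot be told apart, and the classes are therefore taken up gene by gene.

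**Figure D1:**
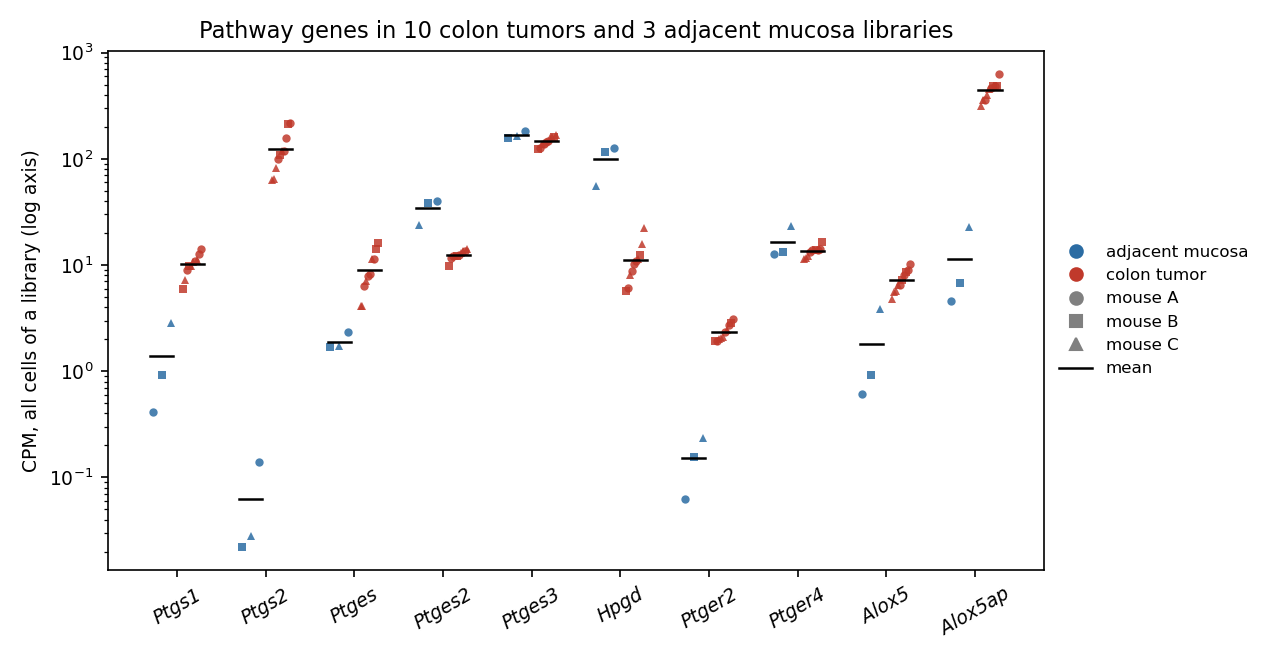
Level of each gene in the sum of all cells of a library, in CPM on a log axis, for 10 colon tumors and 3 adjacent mucosa libraries. Marker shape gives the mouse and the black line the group mean. Ptgs2 is at 63.6 to 215 CPM in tumors and at most 0.138 CPM in mucosa, Hpgd is lower in every tumor than in any mucosa library, and the groups overlap for Ptges3 and Ptger4.

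Ptgs2 encodes the inducible cyclooxygenase, COX-2. It was at 0.0278, 0.138 and 0.0223 CPM in mucosa replicates 1 to 3 and at 63.6 CPM in the lowest tumor, 113 in the median and 215 in the highest. Every tumor therefore lay far above every mucosa library. The tumors averaged 124 ± 54.6 CPM (SD, n = 10) and the mucosa 0.0629 ± 0.0656 (SD, n = 3), and the log2 fold change was 10.93 ± 0.78 (SE, edgeR adjusted p = 6.42e-08). The mucosa value rests on 15 UMIs against 79588 in tumors, a ratio of 1960 with a 95% counting interval of 1188 to 3502. Over 13 alternative fits the log2 fold change lay between 10.12 and 12.21 with the call unchanged. It was 12.21 without mucosa replicate 2.

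Within the tumors, classes were ordered by level throughout over the 14 with at least 20 cells in a tumor, with the unnamed clusters left out. In that order Ptgs2 was highest in Spp1+ macrophage-like cells, the class with markers such as Spp1 and Arg1. It was at 313, 922 and 1460 CPM there in the lowest, median and highest of 10 tumors, or 950 ± 368 (SD, n = 3 mice). Neutrophil-like cells held 166 to 483 CPM (278 ± 72.4, n = 3 mice) and Ly6c+ monocyte-like cells 78.2 to 497 (232 ± 89.3, n = 3 mice). The Spp1+ macrophage-like level was above the neutrophil-like one in 10 of 10 tumors, while neutrophil-like was above Ly6c+ monocyte-like in 6 of 10, and these neighbors did not differ beyond their spread. C1q+ macrophage-like cells followed at 65.3 ± 22.6 CPM and dendritic cell-like cells at 52.4 ± 25.7 (SD, n = 3 mice). The 130 mast cell-like cells of all tumors pooled gave 413 CPM (95% Poisson interval 362 to 469, which covers counting error only). By share of all Ptgs2 UMIs in tumors, 43.0% were in Spp1+ macrophage-like cells, 24.2% in neutrophil-like and 19.7% in Ly6c+ monocyte-like cells, and 1.69% in epithelial cells. A further 5.01% were in unnamed clusters, among them one led by Ccl3 with 371 to 1224 CPM (median 642) and one led by Hspa1a, C3 and Ptgs2 itself with 44.2 to 1874 CPM (median 141). In tumor 6 the unnamed cells together were at 1673 CPM, above the 1242 CPM of its Spp1+ macrophage-like cells.

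At equal depth the highest 4 classes kept their order, while classes with few Ptgs2 UMIs changed places. With each cell thinned to 1000 UMIs, 39.8% of Spp1+ macrophage-like cells held a Ptgs2 UMI (72.3% unthinned, median 6352 UMIs), against 16.9% of neutrophil-like (29.9%, median 2648), 15.7% of Ly6c+ monocyte-like (41.3%, median 6114) and 5.26% of C1q+ macrophage-like cells (29.1%, median 11268). In absorptive epithelial-like cells of the tumors the thinned share was 0.197% (1.64% unthinned, median 16470 UMIs). The neutrophils were not uniform. The cluster led by Acod1 averaged 404 ± 149 CPM of Ptgs2 and the one led by Retnlg 168 ± 73.1 (SD, n = 10 tumors), with the first higher in 10 of 10 tumors. The Ly6c+ monocyte-like clusters led by Ccr2 and by Chil3 were at 229 ± 111 and 224 ± 125 CPM, with the first higher in 5 of 10.

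**Figure D2:**
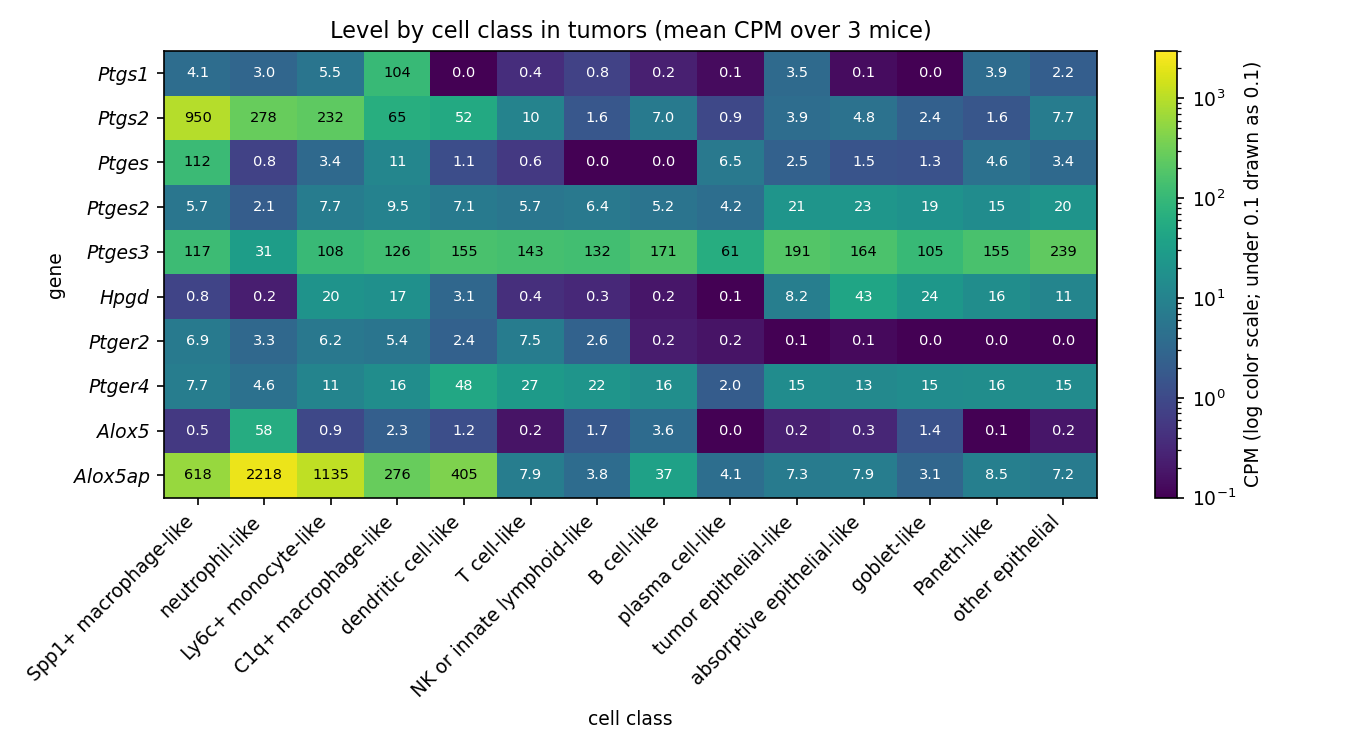
Mean level over 3 mice of each gene (rows) in the 14 cell classes with at least 20 cells in a tumor (columns, unnamed clusters left out), in CPM on a log color scale. Ptgs2 and Ptges are highest in Spp1+ macrophage-like cells (950 and 112 CPM), Ptgs1 in C1q+ macrophage-like cells (104 CPM), and Alox5 and Alox5ap in neutrophil-like cells (58.2 and 2218 CPM).

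Myeloid cells of the mucosa were too few for a test, with 43 neutrophil-like, 46 Ly6c+ monocyte-like and 29 C1q+ macrophage-like cells in all 3 samples. The 43 neutrophil-like cells held 6 Ptgs2 UMIs, or 121 CPM (95% Poisson interval 44.2 to 262), next to 267 in the pooled neutrophil-like cells of tumors. This mucosa value rests on 1 library, replicate 2 (mouse A), the only one with at least 20 such cells. Of the other mucosa UMIs of Ptgs2, 4 came from 2 Spp1+ macrophage-like cells and 2 from dendritic cell-like cells, and absorptive epithelial-like cells held 1.

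Epithelial cells were then compared on their own. In the epithelial sums 4 of the 9 genes tested were called, Ptgs2 higher and Ptges2, Hpgd and Alox5 lower in tumors, and the libraries did not overlap for these 4. Over all 15488 genes tested 64.2% were called and 46.4% did not overlap. Of all called genes 52.9% were higher in tumors, a share that was 61.3% with upper-quartile factors and 69.8% on plain CPM, and plain CPM moved the median of all genes from 0.04 to 0.32. Fold changes of epithelial cells are therefore given relative to the TMM scaling, and can differ from the ratio of the CPM. Epithelial Ptgs2 was at 0, 0.0133 and 0 CPM in the mucosa samples and at 0.393, 4.28 and 11.1 CPM in the lowest, median and highest tumor. The log2 fold change was 9.09 ± 1.32 (SE, edgeR adjusted p = 5.52e-05), resting on 1343 UMIs against 1, a ratio of 1030 with a 95% counting interval of 185 to 40729. It was 10.37 without mucosa replicate 2.

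A cluster led by Cxcl5, a chemokine gene, held 717 of the 1343 epithelial Ptgs2 UMIs of the tumors, in a minority of its cells. In tumors 1 to 10 this cluster was at 2.07, 13, 1.52, 29.4, 2.82, 2.01, 103, 55.7, 2.21 and 29.2 CPM. The tumors thus fell between under 3 CPM (5 of them) and 13 CPM or more (the other 5), and both kinds occurred in each of the 3 mice. In tumor 7, 204 UMIs came from 22 of 148 cells, with 56 in a single cell, and in tumor 8, 188 UMIs came from 15 of 193 cells, with 90 in a single cell. The cluster held 24.1 ± 32.9 CPM over the 10 tumors, against 2.25 ± 1.70 (SD, n = 10) in the largest other cluster of this group, led by Gm26917, with the first higher in 7 of 10 tumors. Free RNA from myeloid cells was gauged by their markers in the same cells. Ptgs2 in the Cxcl5-led cluster was 2.14% of its level in Spp1+ macrophage-like cells, where their whole marker list was at 5.11% and the lowest marker, Arg1, at 0.461%. It was 7.31% of its level in neutrophil-like cells, whose marker list was at 0.209%. In the 7 other epithelial clusters with 205 to 6196 cells in tumors Ptgs2 was at 0.205% to 0.391% of the Spp1+ macrophage-like level, the whole list at 1.53% to 4.08% and the lowest marker at 0.0449% to 0.150%. Smaller clusters are not in these ranges, among them the 25 enteroendocrine-like cells of tumors (Ptgs2 at 2.71%, the list at 4.36%) and the 34 tuft-like cells (0 and 3.96%). The part of free RNA in these low levels was not tested.

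Among absorptive epithelial-like cells, marked by genes of the mature colon surface such as Car1 and Slc26a3, 7 of the 10 genes were tested and all 7 were called, against 55.9% of 11186 genes. In the cluster led by Clca4b alone, an alternative chosen after seeing the data, 4 of 7 were called, against 19.4% of 11138 genes. That cluster held 2069 of 2071 cells of the class in tumors and 967 of 3495 in mucosa, where replicate 1 gave 43. Tumor levels of several genes in the absorptive class changed at a finer clustering, where the calls between tissues were not tested. Ptgs2 averaged 4.16 ± 6.49 CPM (SD, n = 10) against 0.0177 ± 0.0306 (SD, n = 3), a log2 fold change of 5.90 ± 2.03 (edgeR adjusted p = 0.0220) from 99 UMIs against 1, a ratio of 90.9 (95% counting interval 15.9 to 3624). The call was lost without mucosa replicate 2 (log2 fold change 7.07, edgeR adjusted p = 0.0829) or replicate 3 (5.28, 0.0965), and in the Clca4b-led cluster alone (6.79, 0.148). In that cluster the mucosa held 0 UMIs. The pooled level in tumors was at least 8.37-fold higher against a floor of 3 UMIs over the group, which covers counting error only. With the mouse as a replicate block the log2 fold change was 6.58.

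Ptgs1 encodes the constitutive cyclooxygenase, COX-1, and its sources differed from those of Ptgs2. In all cells it was at 2.84, 0.415 and 0.912 CPM in the mucosa samples and at 5.94, 10.2 and 14.2 CPM in the lowest, median and highest tumor, so the groups did not overlap. The log2 fold change was 2.91 ± 0.46 (SE, edgeR adjusted p = 6.66e-05), and 3.91 without mucosa replicate 1. C1q+ macrophage-like cells held 59.1 to 149 CPM (median 98.8; 104 ± 7.64, SD, n = 3 mice) and 75.9% of the Ptgs1 UMIs of the tumors. Next came Ly6c+ monocyte-like cells at 5.45 ± 0.62 CPM (SD, n = 3 mice), lower in 10 of 10 tumors, while 130 pooled mast cell-like cells gave 58.8 CPM (40.7 to 82.1). Within the monocytes, the cluster led by Ccr2 was at 16.2 ± 5.22 CPM and the one led by Chil3 at 0.865 ± 0.519 (SD, n = 10 tumors), with the first higher in 10 of 10. In thinned cells 9.44% of C1q+ macrophage-like cells held a Ptgs1 UMI (53.1% unthinned, median 11268 UMIs), against 0.0147% of T cell-like cells (0.172%, median 3507).

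In the mucosa, Ptgs1 came from tuft-like cells, chemosensory epithelial cells known to express COX-1 and the leukotriene genes. These 206 cells held 92.2% of the Ptgs1 UMIs of the mucosa, at 127 CPM (95% Poisson interval 113 to 143), and in thinned cells 14.5% of them held one (62.6% unthinned, median 9264 UMIs). The 34 tuft-like cells of the tumors gave 44.8 CPM. The tuft marker list summed to 105 CPM in the epithelial cells of mucosa replicate 1 and to 14.1 to 24.5 CPM in replicates 2 and 3, and to 41.0 to 97.9 CPM in those of the tumors. Epithelial Ptgs1 was not called with these cells included (2.51 ± 0.965 CPM in tumors, n = 10, against 1.47 ± 1.5, n = 3; log2 fold change 0.50 ± 0.51, edgeR adjusted p = 0.395). It was called without mucosa replicate 1 (1.74 ± 0.48, edgeR adjusted p = 0.00735) and without mouse C (1.58 ± 0.54, edgeR adjusted p = 0.0329), and its direction turned without mouse A (-0.017, edgeR adjusted p = 0.982).

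Without tuft-like cells the epithelial comparison of Ptgs1 changed. This took out 206 cells of the mucosa and 34 of the tumors. Whether cells with tuft genes remained in the tumor sums was not tested. The mucosa was then at 0.00445 ± 0.00772 CPM (SD, n = 3), from 1 UMI, and the tumors at 1.02, 2.38 and 4.23 CPM in the lowest, median and highest library, from 709 UMIs. The log2 fold change was 8.08 ± 0.71 (SE, edgeR adjusted p = 9.60e-07), and the ratio of the UMIs was 539 with a 95% counting interval of 96.4 to 21312. In this alternative, chosen after seeing the data, 5 of the 8 genes tested were called (3 higher, 2 lower), against 64.5% of 15464 genes. The epithelial Ptgs1 of tumors lay in several clusters, highest in the Cxcl5-led one (5.91 ± 2.24 CPM against 1.09 ± 0.696 in the Gm26917-led one, SD, n = 10, higher in 10 of 10 tumors). In the 8 epithelial clusters with 205 to 6196 cells in tumors the C1q+ macrophage marker list stood at no more than 0.111% of its level in the macrophages, and in the 34 tuft-like cells at 0.445%. Ptgs1 stood at 1.10% to 6.18% of its macrophage level in 5 of these 8 clusters (led by Gm26917, Mt4, Cxcl5, Top2a and Lyz1), at 0.192% in the Clca4b-led cluster and at 0 in the goblet-like ones.

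**Figure D3:**
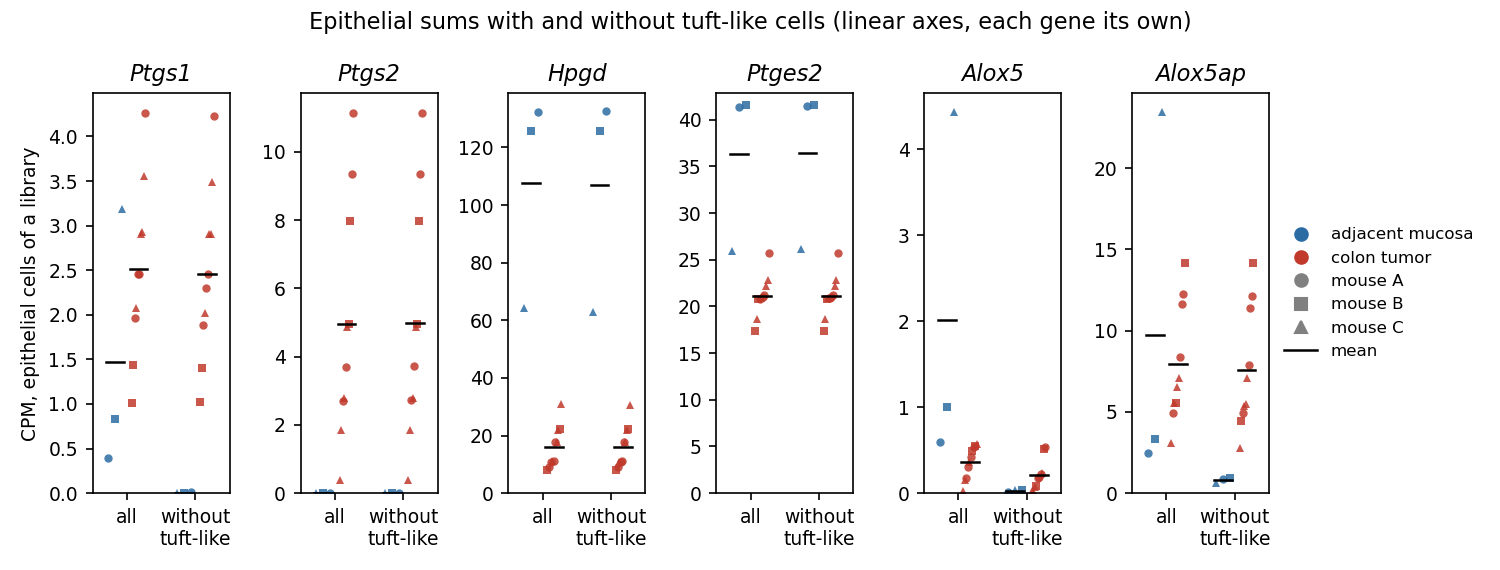
Level of 6 genes in the epithelial cells of each library, with and without tuft-like cells, in CPM on linear axes with a scale per gene. Marker shape gives the mouse and the black line the group mean. Without tuft-like cells the mucosa values of Ptgs1 fall from 0.400 to 3.18 CPM to at most 0.0134 CPM and those of Alox5ap from 2.48 to 23.5 CPM to 0.631 to 0.944 CPM, while Hpgd and Ptges2 keep their levels.

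Of the PGE2 synthases, Ptges encodes the inducible membrane-bound form, known to act with COX-2. In all cells it was at 1.71, 2.32 and 1.68 CPM in mucosa and at 4.10, 8.01 and 16.0 CPM in the lowest, median and highest tumor, without overlap (log2 fold change 2.27 ± 0.45, SE, edgeR adjusted p = 0.000443). Its tumor UMIs lay mostly (65.5%) in Spp1+ macrophage-like cells, at 31.5, 107 and 172 CPM in the lowest, median and highest tumor (112 ± 47.2, SD, n = 3 mice). These cells were above the next class, C1q+ macrophage-like cells at 11.1 ± 7.99 CPM, in 10 of 10 tumors, and C1q+ macrophage-like was above plasma cell-like (6.49 ± 1.65) in 6 of 10. In thinned cells 6.33% of Spp1+ macrophage-like cells held a Ptges UMI (16.8% unthinned, median 6352 UMIs), against 0.0441% of T cell-like cells (0.215%, median 3507). Epithelial cells held 14.0% of the Ptges UMIs of tumors, and the epithelial sums were not called (2.83 ± 0.648 CPM, n = 10, against 1.99 ± 0.315, n = 3; log2 fold change 0.23 ± 0.21, edgeR adjusted p = 0.361). In absorptive epithelial-like cells Ptges fell, with 1.40 ± 0.730 CPM (n = 10) against 2.21 ± 0.882 (n = 3), a log2 fold change of -1.23 ± 0.38 (edgeR adjusted p = 0.0117), from 57 UMIs against 102. It did not pass the filter on low counts without mucosa replicate 2 or 3 or at the 10% mitochondrial limit, and was called in the other 4 alternatives.

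Ptges2, a second membrane-associated synthase, moved the other way. It was at 23.8, 39.9 and 38.7 CPM in all cells of the mucosa and at 9.83, 12.3 and 14.1 CPM in the lowest, median and highest tumor (log2 fold change -1.45 ± 0.14, SE, edgeR adjusted p = 8.45e-07). The fall was also present within epithelial cells, at 25.9, 41.4 and 41.5 CPM in mucosa and 17.4 to 25.7 CPM (median 20.9) in tumors (log2 fold change -1.06 ± 0.13, edgeR adjusted p = 1.47e-05). Within absorptive epithelial-like cells the log2 fold change was -0.82 ± 0.19 (edgeR adjusted p = 0.00186), and -0.67 (0.00662) in the Clca4b-led cluster. How these Ptges2 fold changes differ from that of all epithelial cells was not tested. Epithelial classes led its order in tumors, with absorptive at 22.5 ± 1.74, tumor epithelial-like at 21.4 ± 1.29 and other epithelial cells at 20.4 ± 2.35 CPM (SD, n = 3 mice), which did not differ beyond their spread, and held 73.7% of its tumor UMIs. The place of the absorptive class depended on the clustering, since at resolution 2 its level was 10.9 CPM, below the 14.9 CPM of Paneth-like cells.

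Ptges3, the cytosolic synthase also known as the HSP90 co-chaperone p23, was not called in either sum. All-cell levels were 163, 184 and 155 CPM in mucosa and 124 to 167 CPM (median 146) in tumors, so the groups overlapped (log2 fold change -0.19 ± 0.10, SE, edgeR adjusted p = 0.104). In the epithelial sums it was at 207 ± 13.3 CPM (n = 10) against 170 ± 15.2 (n = 3), with a log2 fold change of 0.01 ± 0.10 (edgeR adjusted p = 0.931) after TMM scaling. It was called in the absorptive epithelial-like sums, at 165 ± 14.5 CPM (n = 10) against 70.0 ± 12.2 (n = 3), a log2 fold change of 0.77 ± 0.13 (edgeR adjusted p = 0.000206). In the Clca4b-led cluster alone it was 0.35 (edgeR adjusted p = 0.0717). The tumor level of this class depended on the clustering. Its mean over mice was 164 CPM in the main clustering and 62.8 CPM in a finer one. The finer value lies below the 70.0 CPM of the mucosa in the main clustering, which is another set of cells. The rise of Ptges3 was called in the main clustering, and whether it holds at the finer one was not tested. The gene was counted in every class of the tumors, from 239 ± 13.1 CPM in other epithelial cells and 191 ± 11.2 in tumor epithelial-like cells, the first higher in 10 of 10 tumors, down to 30.8 ± 3.42 in neutrophil-like cells (SD, n = 3 mice).

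Hpgd encodes 15-hydroxyprostaglandin dehydrogenase, which inactivates PGE2. All cells of the mucosa were at 55.9, 126 and 115 CPM and the tumors at 5.74, 10.6 and 22.1 CPM in the lowest, median and highest library. Every tumor was below every mucosa library, with a log2 fold change of -3.16 ± 0.31 (SE, edgeR adjusted p = 8.45e-07) and a range of -3.74 to -2.76 over 13 alternatives. The fall was also present within the epithelial cells, where the mucosa was at 64.4, 132 and 126 CPM and the tumors at 7.88 to 30.8 CPM with a median of 14.4 (log2 fold change -3.01 ± 0.34, edgeR adjusted p = 7.16e-06). Within absorptive epithelial-like cells it was at 195, 281 and 282 CPM in mucosa and at 27.6, 36.9 and 84.4 CPM in the lowest, median and highest tumor. The log2 fold change was -2.93 ± 0.27 (edgeR adjusted p = 7.77e-07).

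The make-up of the absorptive class differed between the tissues. A cluster led by 1810065E05Rik, with 2528 mucosa cells and 2 tumor cells, carried 291 ± 58.2 CPM of Hpgd in the mucosa. In the Clca4b-led cluster, the one filled in both tissues, Hpgd was at 148 ± 40.4 CPM (n = 3) against 44.9 ± 19.8 (n = 10), a log2 fold change of -1.93 ± 0.28 (edgeR adjusted p = 0.000681). Thinned to 1000 UMIs, 21.6% of absorptive epithelial-like cells of the mucosa (70.2% unthinned, median 9771 UMIs) and 3.50% of those of the tumors (37.3%, median 16470) held an Hpgd UMI, against 0.455% and 0.0589% of T cell-like cells (median 1838 and 3507 UMIs). Goblet-like cells, the mucus-secreting cells, were at 34.1, 59.1 and 63.3 CPM in mucosa and at 24.3 ± 15.6 CPM (SD, n = 8) in tumors, a log2 fold change of -0.69 ± 0.36 that was not called (edgeR adjusted p = 0.217). Of the Hpgd UMIs of tumors 65.9% were epithelial, 18.3% lay in Ly6c+ monocyte-like cells (12.6 to 31.4 CPM, median 21.4) and 11.9% in C1q+ macrophage-like cells (17.4 ± 5.92 CPM, SD, n = 3 mice). The Chil3-led monocyte cluster was at 25.8 ± 8.01 CPM and the Ccr2-led one at 10.9 ± 6.17 (SD, n = 10), the reverse of their order for Ptgs1, with the Chil3-led cluster higher in 9 of 10 tumors. Tumor epithelial-like cells, marked by Wnt target genes such as Axin2 and Notum, were at 8.19 ± 3.78 CPM (SD, n = 3 mice).

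**Figure D4:**
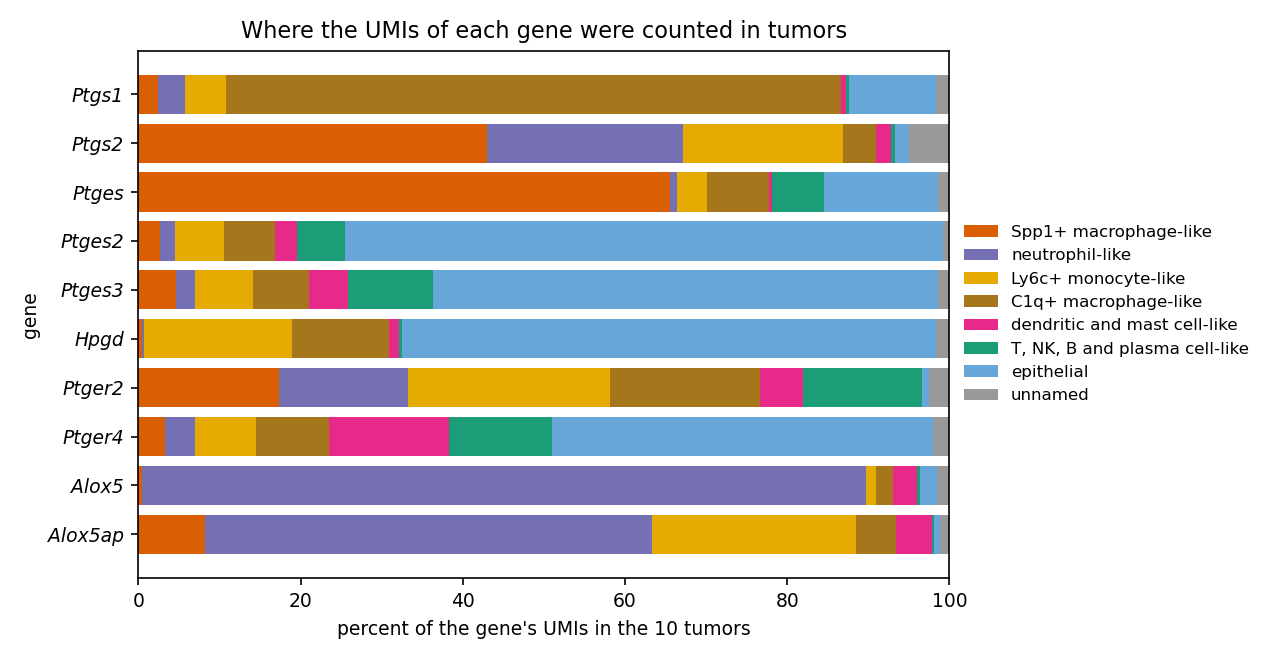
Share of each gene's UMIs in the 10 tumors that was counted in each group of cells, in percent. Spp1+ macrophage-like cells hold 43.0% of Ptgs2 and 65.5% of Ptges, C1q+ macrophage-like cells 75.9% of Ptgs1, neutrophil-like cells 89.2% of Alox5 and 55.1% of Alox5ap, and epithelial cells 65.9% of Hpgd, 73.7% of Ptges2 and 62.4% of Ptges3.

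Ptger2 and Ptger4 encode the PGE2 receptors EP2 and EP4, which raise cAMP. Ptger2 was at 0.236, 0.0629 and 0.156 CPM in all cells of the mucosa and at 1.93, 2.22 and 3.11 CPM in the lowest, median and highest tumor (log2 fold change 3.97 ± 0.34, SE, edgeR adjusted p = 3.07e-07). It was spread over T cell-like cells and most myeloid classes of the tumors, while B cell-like and plasma cell-like cells were at 0.216 and 0.170 CPM. T cell-like cells were at 7.46 ± 0.67 CPM, Spp1+ macrophage-like at 6.88 ± 1.57, Ly6c+ monocyte-like at 6.20 ± 0.26 and C1q+ macrophage-like at 5.42 ± 0.22 (SD, n = 3 mice), and T cell-like was above Spp1+ macrophage-like in 4 of 10 tumors. Neutrophil-like cells lay lower, at 3.32 ± 0.48 CPM, below C1q+ macrophage-like cells in 9 of 10 tumors. Epithelial cells held 0.850% of its tumor UMIs (13 UMIs, against 1 in mucosa), where Ptger2 did not pass the filter on low counts. Without that filter its log2 fold change there was 2.44 ± 1.03 (SE, edgeR adjusted p = 0.0623).

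Ptger4 was not called in all cells, at 23.5, 12.7 and 13.3 CPM in mucosa and 11.4 to 16.3 CPM (median 13.8) in tumors (log2 fold change -0.27 ± 0.16, edgeR adjusted p = 0.142). Without mucosa replicate 1 the fold change was 0.04, and without replicate 2 it was -0.41 and called (edgeR adjusted p = 0.0480). In the epithelial sums, which held 46.9% of its tumor UMIs, it was at 14.6 ± 2.39 CPM (n = 10) against 14.8 ± 5.79 (n = 3), and was not called (log2 fold change -0.30 ± 0.18, edgeR adjusted p = 0.159). In absorptive epithelial-like cells it was at 53.0, 13.8 and 15 CPM in mucosa and at 12.7 ± 2.11 CPM (n = 10) in tumors, a log2 fold change of -1.49 ± 0.31 (edgeR adjusted p = 0.000988). That fall was -0.63 without mucosa replicate 1 and -0.05 (edgeR adjusted p = 0.941) in the Clca4b-led cluster alone. Of the ordered classes, dendritic cell-like cells carried the highest Ptger4 level of the tumors, at 25.7, 43.3 and 75.1 CPM in the lowest, median and highest tumor, above T cell-like cells (27.1 ± 3.15, SD, n = 3 mice) in 10 of 10. In thinned cells 4.76% of dendritic cell-like cells held a Ptger4 UMI (24.3% unthinned, median 7538 UMIs), against 0.456% of neutrophil-like cells (1.2%, median 2648).

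In T cell-like cells 6 of the 10 genes were tested and 5 were called, against 41.3% of 10524 genes. Ptger4 fell, from 56.6, 60.5 and 65.7 CPM in mucosa to 20.0, 27.0 and 33.1 CPM in the lowest, median and highest tumor (log2 fold change -0.99 ± 0.12, SE, edgeR adjusted p = 3.07e-06). Ptger2 rose, from 2.02, 2.02 and 3.60 CPM to 4.81, 7.15 and 11.6 CPM (log2 fold change 1.67 ± 0.30, edgeR adjusted p = 0.000225). The groups did not overlap for either receptor, but the share of all genes without overlap was not computed in this class. At equal depth 6.32% of mucosa T cell-like cells (12.2% unthinned, median 1838 UMIs) and 2.94% of tumor ones (9.60%, median 3507) held a Ptger4 UMI.

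The T cell-like clusters held unlike shares of the cells of the tissues. A cluster led by Gzma, a granzyme gene of cytotoxic lymphocytes, held 3938 of the 4678 T cell-like cells of the mucosa and 455 of the 6988 of the tumors. Without the clusters led by Gzma, an alternative chosen after seeing the data, Ptger4 was at 32.6 ± 5.48 CPM (n = 3) and 26.3 ± 4.59 (n = 10), with a log2 fold change of -0.13 ± 0.21 (edgeR adjusted p = 0.758). Ptger2 was then at 6.30 ± 4.39 CPM and 7.75 ± 2.06, with 0.60 ± 0.44 (edgeR adjusted p = 0.390). The change of either fold change between these fits, and the part of the T cell make-up in it, was not tested. In that fit edgeR called 0 of the 6 genes tested (1 at an unadjusted p under 0.05, Ptgs2), against 15.9% of 10078 genes. Within tumors the T cell-like cluster led by Il17a held 12.0 ± 3.25 CPM of Ptger2 and the one led by Ms4a4b 2.12 ± 1.80 (SD, n = 10), higher in 10 of 10 tumors, while Ptger4 was at 25.5 ± 3.85 and 31.9 ± 12.0 CPM, higher in 3 of 10.

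**Figure D5:**
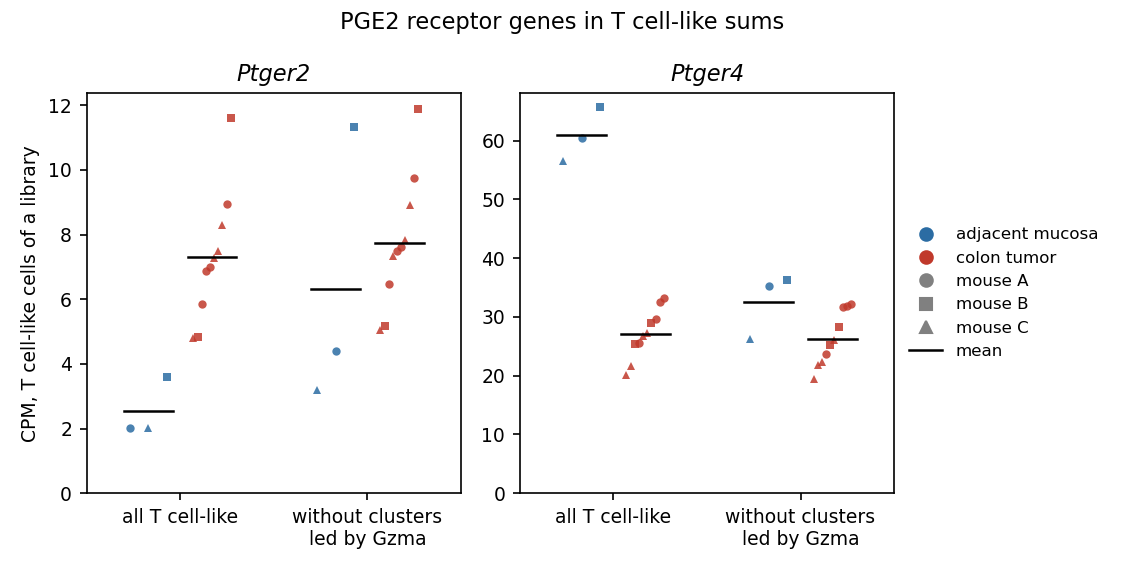
Levels of the receptor genes Ptger2 and Ptger4 in T cell-like cells of each library, for all such cells and without the clusters led by Gzma, in CPM on linear axes. Marker shape gives the mouse and the black line the group mean. With all cells, Ptger4 is at 56.6 to 65.7 CPM in mucosa and 20.0 to 33.1 CPM in tumors, and without the Gzma-led clusters the groups overlap.

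Of the other members in T cell-like cells, Ptges2 fell (5.71 ± 1.01 CPM, n = 10, against 13.6 ± 3.06, n = 3; log2 fold change -1.03 ± 0.19, edgeR adjusted p = 0.000236) and Alox5ap rose (8.36 ± 4.28 against 2.22 ± 1.14 CPM; 2.23 ± 0.50, edgeR adjusted p = 0.00158). Ptgs2 was at 0.911, 7.61 and 28.0 CPM in the lowest, median and highest tumor, from 264 UMIs, against 0 UMIs in mucosa (edgeR adjusted p = 0.00224). Pooled over libraries it was at least 33.5-fold higher in tumors against a floor of 3 UMIs over the group, which covers counting error only. Without the Gzma-led clusters none of the 3 was called, though all kept their direction. The log2 fold change was then -0.47 for Ptges2 (edgeR adjusted p = 0.466) and 1.65 for Alox5ap (edgeR adjusted p = 0.196). For Ptgs2, still at 0 UMIs in mucosa, the fitted value was 7.47, against 7.90 with all T cell-like cells (edgeR adjusted p = 0.122), and with no mucosa UMIs neither is a bound. Hpgd did not pass the filter in T cell-like cells, where 47 of 4678 mucosa cells and 10 of 6988 tumor cells held a UMI. It passed only without mucosa replicate 1, where the smaller mucosa group lets in a gene that is high in the mucosa libraries left. The lower value in tumors there (log2 fold change -4.09 ± 0.53) follows from that choice and is not read as a call. T cell-like cells held Ptgs2 at 0.999% of its Spp1+ macrophage-like level, where the Spp1+ macrophage marker list was at 3.86%, and at 3.41% of its neutrophil-like level, where the neutrophil list was at 0.177%. Their Alox5ap was at 1.33% of the Spp1+ macrophage-like level and 0.380% of the neutrophil-like one. The part of free RNA in both was not tested.

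Alox5 and Alox5ap start leukotriene synthesis, as the 5-lipoxygenase and the membrane protein FLAP that presents arachidonate to it. In all cells Alox5ap was at 22.7, 4.58 and 6.71 CPM in mucosa and at 312, 461 and 623 CPM in the lowest, median and highest tumor (log2 fold change 5.33 ± 0.50, SE, edgeR adjusted p = 6.73e-07). Alox5 was at 3.87, 0.604 and 0.912 CPM in mucosa and at 4.83, 6.91 and 10.2 CPM in tumors (log2 fold change 2.06 ± 0.46, edgeR adjusted p = 0.00113). The tumor libraries lay above the mucosa for both genes, and the closest mucosa library was replicate 1, without which the log2 fold changes were 6.28 and 3.24.

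Of the ordered classes, neutrophil-like cells had the highest level of both genes. Alox5ap was at 1810 to 2570 CPM there (median 2170; 2218 ± 149, SD, n = 3 mice), followed by Ly6c+ monocyte-like (1135 ± 24.5), Spp1+ macrophage-like (618 ± 61.2), dendritic cell-like (405 ± 51.1) and C1q+ macrophage-like cells (276 ± 27.1), an order that held in 10 of 10 tumors at each step. Alox5 was at 45.9, 58.7 and 66.8 CPM in neutrophil-like cells of the lowest, median and highest tumor (58.2 ± 2.91, SD, n = 3 mice), which held 89.2% of its tumor UMIs. The next of these classes was B cell-like at 3.63 ± 6.23 CPM, which rests on 5 UMIs. The 34 tuft-like cells of tumors gave 138 CPM, and the 130 pooled mast cell-like cells gave 185 CPM of Alox5 (95% Poisson interval 152 to 223) and 1002 CPM of Alox5ap. Within the neutrophils the Retnlg-led cluster was higher than the Acod1-led one in 10 of 10 tumors for Alox5 (71.2 ± 6.98 against 43.1 ± 5.06 CPM, SD, n = 10) and for Alox5ap (2538 ± 220 against 1821 ± 220), opposite to Ptgs2. In thinned cells 83.7% of neutrophil-like cells held an Alox5ap UMI (95.5% unthinned, median 2648 UMIs) and 5.86% an Alox5 UMI (14.7%), against 0.515% and 0.0441% of T cell-like cells (1.86% and 0.0716%, median 3507). The neutrophil-like cells of the mucosa gave 2833 CPM of Alox5ap (95% Poisson interval 2384 to 3341), above the highest tumor. That value rests on 1 library, mucosa replicate 2 (mouse A). Of the 43 such cells of the mucosa, with a median of 1169 UMIs, 2 lay in the Retnlg-led cluster and 5 in the Acod1-led one. Their make-up and depth thus differed from those of the tumors.

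Tuft-like cells held 96.8% of the Alox5 and 66.6% of the Alox5ap UMIs of the mucosa, at 171 CPM (95% Poisson interval 155 to 189) and 749 CPM (714 to 785). Epithelial Alox5 was at 4.43, 0.599 and 1.00 CPM in mucosa and at 0.0306, 0.390 and 0.574 CPM in the lowest, median and highest tumor, a log2 fold change of -2.77 ± 0.56 (edgeR adjusted p = 0.000706), and -1.46 without mucosa replicate 1 (edgeR adjusted p = 0.0351). Without tuft-like cells it had 53 UMIs in tumors and 6 in mucosa, more in tumors, and did not pass the filter on low counts. The fall was therefore not tested without these cells. Epithelial Alox5ap was at 23.5, 2.48 and 3.35 CPM in mucosa and 3.12 to 14.2 CPM (median 6.79) in tumors and was not called (log2 fold change -0.58 ± 0.55, edgeR adjusted p = 0.369). Its direction turned on mucosa replicate 1, without which it was 1.15 (edgeR adjusted p = 0.0496). Without tuft-like cells it was at 0.824 ± 0.168 CPM (n = 3) and 7.57 ± 3.77 (n = 10), a log2 fold change of 2.89 ± 0.48 (edgeR adjusted p = 0.000146). In the same 8 epithelial clusters of tumors Alox5ap was at 0.163% to 0.565% of its neutrophil-like level and the neutrophil marker list at 0.0778% to 0.406% of its own. In the 25 enteroendocrine-like cells these were 5.96% and 3.68%, and in the 34 tuft-like cells 14.3% and 1.23%. The part of free RNA was not tested. In absorptive epithelial-like cells Alox5ap rose by 4.13 ± 0.94 on the log2 scale (7.14 ± 5.83 CPM, n = 10, against 0.201 ± 0.175, n = 3; edgeR adjusted p = 0.00180), from 261 UMIs against 11.

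A further 4 classes were filled in both tissues. Their counts over all genes depended on the mucosa libraries, and with 1 left out were 274 to 439 in goblet-like (from 900), 671 to 965 in NK or innate lymphoid-like (from 1031), 1483 to 2179 in B cell-like (from 2228) and 1627 to 2267 in plasma cell-like cells (from 2491). At the 10% mitochondrial limit 163 genes were called in goblet-like cells. In goblet-like cells edgeR called 0 of the 4 genes tested (Ptges2, Ptges3, Hpgd and Ptger4), against 12.3% of 7332 genes, with 1 at an unadjusted p under 0.05 (Ptger4, log2 fold change -0.62 ± 0.21) and 0 called by DESeq2. In NK or innate lymphoid-like cells Ptges3 was the single gene tested and was not called by edgeR or DESeq2 (log2 fold change -0.20 ± 0.19, edgeR adjusted p = 0.443), against 31.8% of 3242 genes. In B cell-like cells edgeR called 0 of the 3 genes tested, against 38.9% of 5728 genes, with adjusted p-values of 0.0577 for Ptges3, 0.0641 for Ptger4 and 0.357 for Alox5ap. At an unadjusted p under 0.05 there were 2 (Ptges3 and Ptger4), and DESeq2 called Ptges3 (log2 fold change 0.40, adjusted p = 0.0427), as did edgeR without mucosa replicate 1 (0.51, adjusted p = 0.0475). In plasma cell-like cells Ptges was called, the only one of 5 tested, against 26.6% of 9365 genes. It was at 3.88, 4.46 and 4.41 CPM in mucosa and 3.92 to 9.30 CPM (median 5.52) in tumors, so the groups overlapped, with a log2 fold change of 1.12 ± 0.30 after TMM scaling (edgeR adjusted p = 0.0123). The ratio of its UMIs before that scaling was 1.38 (95% counting interval 0.840 to 2.45, 352 UMIs against 16), and the call was lost without mucosa replicate 1 (log2 fold change 0.99, edgeR adjusted p = 0.0670). With the mouse as a replicate block, Ptges3 (log2 fold change -0.32, edgeR adjusted p = 0.0478) and Alox5ap (2.87, 0.0281) were called as well in plasma cell-like cells, as they were by DESeq2. Alox5ap, at 2.54 (edgeR adjusted p = 0.0682) without the block, was also called without mucosa replicate 3 (7.03, edgeR adjusted p = 0.0444). In the mucosa 1 of 430 plasma cell-like cells held an Alox5ap UMI, so the size of these Alox5ap fold changes is set by a group near the floor.

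The difference between tissues was then compared between epithelial and T cell-like cells in a single model with the library as a block. Of the 9 genes tested 2 were called, against 35.3% of 15490 genes. For Ptger4 the change in epithelial cells exceeded that in T cell-like cells by 0.77 ± 0.17 on the log2 scale (SE, edgeR adjusted p = 0.00208), and by -0.25 (edgeR adjusted p = 0.581) without the Gzma-led clusters. For Alox5ap the difference was -2.66 ± 0.65 (edgeR adjusted p = 0.00414), with -0.90 (edgeR adjusted p = 0.274) without mucosa replicate 1, -3.45 without replicate 2 and -2.68 (edgeR adjusted p = 0.0641) without the Gzma-led clusters. The difference was not fitted without tuft-like cells. Without them the epithelial log2 fold change of Alox5ap was 2.89 (-0.58 with them), beside 2.23 in T cell-like cells. The other 7 genes tested were not called, among them Hpgd (0.31 ± 0.64, edgeR adjusted p = 0.766) and Ptges2 (0.04 ± 0.20, edgeR adjusted p = 0.937). Some alternatives called 3 further genes. Ptgs1 was called without mucosa replicate 1 (3.01, edgeR adjusted p = 0.00592, against 1.53 and 0.156 with it) and Ptges without replicate 2 (-6.16, edgeR adjusted p = 0.0279, against -1.40 and 0.274). Alox5, which did not pass the filter, was called without the filter (-4.13, edgeR adjusted p = 0.0187) and without replicate 2 (-4.06, edgeR adjusted p = 0.0203). Only 5 T cell-like cells of tumors and 1 of mucosa held an Alox5 UMI, so the T cell-like side of these values is near the floor.

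The rest of the pathway was read from 7 lists of 43 genes found in the counts, chosen with earlier results of these data known. Their counts stand beside 70.3% of all genes called in all cells and 64.2% in epithelial cells. Of the 6 phospholipase genes that release arachidonate, 4 fell and 2 rose in all cells (median log2 fold change -1.12, against 0.03 over all genes) and likewise in epithelial cells (median -1.34, against 0.04). Pla2g10, a secreted phospholipase, was at 35.9 ± 17.7 CPM (n = 10) against 158 ± 11.2 (n = 3), and Pla2g5 at 2.24 ± 1.11 against 17.1 ± 1.08 (log2 fold changes -2.13 and -2.93, edgeR adjusted p = 8.98e-05 and 4.46e-06). In epithelial cells Pla2g4a, the cytosolic phospholipase, fell from 44.7 ± 10.1 to 15.2 ± 7.54 CPM (-1.81, edgeR adjusted p = 0.000577). Within absorptive epithelial-like cells the same gene rose, from 8.68 ± 0.64 to 38.6 ± 10.0 CPM (1.67 ± 0.21, edgeR adjusted p = 1.28e-05), and in their Clca4b-led cluster alone it was not called (0.29, edgeR adjusted p = 0.308).

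The other prostanoid synthases split, with 3 of 7 higher, 2 lower and 2 not called in all cells (median 0.03), where 70.3% of all genes were called. Tbxas1, which makes thromboxane, was at 10.6 ± 1.65 CPM (n = 10) against 0.112 ± 0.105 (n = 3), a log2 fold change of 6.60 ± 0.44 (edgeR adjusted p = 4.10e-08), and Cbr1, a carbonyl reductase that acts on PGE2, fell from 336 ± 127 to 58.3 ± 13.5 CPM (-2.53 ± 0.21, edgeR adjusted p = 2.75e-07). In epithelial cells 2 of 6 tested rose and 3 fell (median -0.61), with Cbr1 at 117 ± 18.9 against 362 ± 132 CPM (-1.90 ± 0.19, edgeR adjusted p = 3.28e-06) and Prxl2b at 15.3 ± 3.03 against 24.1 ± 9.96 (-0.92 ± 0.23, edgeR adjusted p = 0.00307). Of the other prostanoid receptors 4 of 7 could be tested, 3 higher and 1 lower (median 1.77), and none reached 5 CPM in either tissue. In epithelial cells 3 could be tested, 2 higher and 1 lower (median 1.48).

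Of the 4 transport and reduction genes, 2 rose and 2 fell in all cells (median -0.18). Abcc4, an exporter of PGE2, rose from 4.26 ± 0.974 to 20.7 ± 4.55 CPM (log2 fold change 2.30 ± 0.21, edgeR adjusted p = 4.62e-07), and Slco2a1, the prostaglandin uptake transporter, fell from 11.5 ± 2.70 to 4.44 ± 3.06 CPM (-1.40 ± 0.48, edgeR adjusted p = 0.0183). In epithelial cells (2 higher, 1 lower and 1 not called, median 0.25) Abcc4 rose by 2.82 ± 0.23 (36.5 ± 7.44 against 4.27 ± 1.02 CPM, edgeR adjusted p = 5.47e-07) and Ptgr1, a prostaglandin reductase, by 1.03 ± 0.21 on the log2 scale (edgeR adjusted p = 0.000870), while Slco2a1 was not called (-0.72 ± 0.49, edgeR adjusted p = 0.210).

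Of 9 genes of leukotriene synthesis and breakdown, 4 rose, 4 fell and 1 was not called in all cells (median -0.04), again beside 70.3% of all genes. Dpep1, a dipeptidase that cleaves leukotriene D4, was at 0.708 ± 0.694 CPM (n = 10) against 93.9 ± 49.8 (n = 3), a log2 fold change of -7.05 ± 0.66 (edgeR adjusted p = 6.39e-07), and Cyp4f18, which inactivates leukotriene B4, rose from 1.93 ± 0.358 to 93.1 ± 15.9 CPM (5.60 ± 0.26, edgeR adjusted p = 2.58e-09). In epithelial cells 3 of 8 tested rose and 5 fell (median -1.58), among them Dpep1 (-6.43 ± 0.65, edgeR adjusted p = 2.87e-06) and Ltc4s, leukotriene C4 synthase, from 11.6 ± 12.0 to 0.820 ± 0.409 CPM (-4.09 ± 0.51, edgeR adjusted p = 1.48e-05). Ltc4s is among the leading genes of the tuft-like cluster, and without tuft-like cells its fold change was -2.18 ± 0.33 (edgeR adjusted p = 8.04e-05). Of 4 leukotriene receptors tested, 2 rose in all cells, Ltb4r1 (65.6 ± 13.3 against 1.07 ± 0.357 CPM; 5.96 ± 0.34, edgeR adjusted p = 1.17e-08) and Cysltr1 (11.2 ± 0.878 against 0.202 ± 0.103; 5.81 ± 0.25, edgeR adjusted p = 2.25e-09), and the other two were not called (median 3.09). In epithelial cells 1 of 2 tested rose (median 0.45), with Ltb4r1 at 1.2 ± 0.398 CPM. Among 5 other lipoxygenase and epoxide hydrolase genes, Alox12 rose from 0.0269 ± 0.0279 to 27.1 ± 9.68 CPM in all cells (7 UMIs in mucosa; log2 fold change 9.79 ± 0.67, edgeR adjusted p = 4.91e-08) and to 60.8 ± 18.9 CPM in epithelial cells (10.50 ± 0.63, edgeR adjusted p = 7.05e-08). Ephx2, soluble epoxide hydrolase, fell by 3.53 ± 0.34 on the log2 scale in all cells (edgeR adjusted p = 8.49e-07) and by 3.1 ± 0.39 in epithelial cells (edgeR adjusted p = 1.70e-05). The 5 split as 1 higher, 1 lower and 3 not called in all cells (median 0.82) and 3, 1 and 1 in epithelial cells (median 1.28).

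The genes most like each member were sought over the 137 sums of a class in a tumor, by Pearson correlation of log2(CPM + 1) across 7128 genes that reached 50 CPM in some sum. The sums of a class share their depth and cell type, so these values are a description with no test. Ptgs2 was closest to Ptafr (r = 0.94), the receptor of platelet-activating factor, and to the cytokine genes Il1b and Il1a (0.93 each). Alox5ap was closest to Mcemp1 (0.97), Il1b and Ptafr (0.96 each), and Alox5 to Gm16556 (0.91), Mrgpra2a and Nlrp12 (0.88 each). The nearest genes to Ptgs1 were Itga9 (0.86), Mmp2 (0.84) and Lilra5 (0.83), and those to Ptges were Gm15056 (0.76), Slc7a2 and Sod2 (0.73 each). Hpgd followed Deptor (0.87), Selenbp1 (0.86) and Plxnb2 (0.84). Ptges2 followed Srek1ip1 (0.87), Csrp2 (0.86) and Poldip2 (0.84), and Ptges3 followed Sf3a3 (0.95), Cct8 and Caprin1 (0.94 each). For the receptors, Ptger2 was nearest to Slc15a3 (0.85), Bcl2a1a and Fyb (0.84 each) and Ptger4 to Phlpp1 (0.78), Dek and Znrf2 (0.76 each).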

How the data were processed

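Single cells of 10 colon tumors and 3 mucosa samples were profiled. The authors counted UMIs per gene with Cell Ranger (6.0.0 and build mm10 in the submitters' processing notes, another version in the methods) and deposited unnormalized counts. The 10 genes and all gene lists were chosen with earlier results of these data known, and the genes named from lists were the up to 2 called genes of largest fold change with at least 5 CPM. Barcodes with at least 500 UMIs, 200 genes and under 25% mitochondrial UMIs were kept, and 10397 likely doublets (0.8% per 1000 barcodes, scored against simulated doublets) were removed. Leiden clustering (2000 variable genes without pathway genes, 30 components, 20 neighbors, resolution 1) gave 40 clusters, named from fixed markers. UMIs were summed per library and class (at least 20 cells) and tested with edgeR 4.0.16 in R 4.3.3 (quasi-likelihood, TMM factors, filterByExpr, Benjamini-Hochberg adjustment over all genes tested). Alternatives for all cells and for epithelial cells were DESeq2 1.42.0, upper-quartile factors, no filter and a mitochondrial limit of 10%. Others there were the mouse as a block, tumors summed per mouse, each mucosa library or mouse left out and, for all cells only, doublets kept. Single classes had DESeq2, the 10% limit, the mouse as a block, at least 50 cells and each mucosa library left out. They were not refitted with tumors summed per mouse. The difference between classes had upper-quartile factors, no filter and each mucosa library left out. Pairing comes from the animal code in the labels. The deviations of a mouse's tumors and mucosa from their group means had a Pearson r across genes, which are not replicates, of 0.0703, 0.0919 and 0.123 (mice A, B and C) in all cells and of 0.128, 0.139 and 0.295 in epithelial cells. The SE of an edgeR log2 fold change is its absolute value divided by the square root of the quasi-likelihood F, not a separate estimate. Intervals and floors cover counting error only. Scripts were tested on simulated counts.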

Additional observations from a re-analysis of the deposited data

Results flagged for a closer look

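In 48 tests for a library apart from its group, 2 values stood out, about as many as chance gives (about 1 in 20). Both belong to the dendritic cell-like cells of tumor 9 (mouse B). Their Ptger4 level was 75.1 CPM, where the nearest other tumor was at 49.6 and the lowest at 25.7, a gap of 0.516 of the range against a critical value of 0.466. Their Ptgs2 level was 120 CPM, with the nearest at 59.4, the lowest at 16.5 and a gap of 0.585. The difference between tissues also differed between epithelial and T cell-like cells for Ptger4 (by 0.77 on the log2 scale) and Alox5ap (by -2.66), by the test of that difference in edgeR, with the exceptions given in the report. That test was not run without tuft-like cells.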

How the results depend on the processing

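The 8 genes called in all cells kept their call and direction in all 13 alternatives, as did Ptgs2, Ptges2 and Hpgd in epithelial cells, and epithelial Alox5 in the 12 that tested it. In the alternative without tuft-like cells epithelial Alox5 did not pass the filter on low counts, so its fall was not tested there. The mouse as a replicate block, not fitted for the difference between classes, changed no call beside Ptges3 (-0.32) and Alox5ap (2.87) in plasma cell-like cells. Of 471 log2 fold changes under an alternative, 421 kept direction and side of the threshold, 24 reversed (3 of them gaining and 1 losing a call), and 13 gained and 13 lost a call in the same direction. Of 72 counts of called genes 62 stayed within 1.5 times, and of 700 levels by class 671 moved by less than the spread between replicates. The other 29 (17 higher, 12 lower, 16 of them by over 1.5 times) lay mostly in absorptive epithelial-like, goblet-like and Paneth-like cells. At the finer clustering, absorptive Ptges3 was at 62.8 CPM (from 164) and Ptges2 at 10.9 (from 22.5), goblet-like Hpgd at 45.9 (from 23.7) and Spp1+ macrophage-like Ptgs1 at 9.03 (from 4.05). The cause of each reversal was not tested.

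Reversals were all of values not called in the main fit, other than Ptger4 in the difference between classes. In all cells, Ptger4 was 0.13 without mouse C and -0.41 to 0.040 with 1 mucosa library left out. In epithelial cells, Ptges3 was -0.028 without the filter, -0.038 and -0.057 without mouse B or C, and -0.052 to 0.081 with 1 mucosa library left out. Epithelial Ptgs1 was -0.017 without mouse A, 1.58 without mouse C (called) and 1.74 without mucosa replicate 1 (called), and Ptger4 0.19 without mouse C and -0.47 to 0.061 with 1 mucosa library left out. Epithelial Alox5ap was 1.40 without mouse C (called), 2.89 without tuft-like cells and -1.05 to 1.15 with 1 mucosa library left out (called without replicate 1). T cell-like Ptges3 was -0.0016 to 0.13 with 1 mucosa library left out. For the epithelial minus T cell-like difference, Ptges3 was 0.12 with upper-quartile factors, 0.052 without the filter and -0.13 to 0.091 with 1 mucosa library left out, where Ptges2 was -0.18 to 0.36, Hpgd -0.31 to 0.82 and Ptger2 -0.073 to 1.46. Without the Gzma-led clusters that difference was -6.47 for Ptgs1, -0.40 for Ptges2 and -0.25 for Ptger4.

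Genes called fell to 2166 in the Clca4b-led cluster alone (6256 in the class), 1603 in T cell-like cells (from 4347) and 2811 for the difference between classes (from 5463) without the Gzma-led clusters, and to 163 in goblet-like cells at the 10% mitochondrial limit (from 900). With 1 mucosa library left out they were 274 to 439 in goblet-like, 671 to 965 in NK or innate lymphoid-like, 1483 to 2179 in B cell-like and 1627 to 2267 in plasma cell-like cells.

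With 3 mucosa samples and 146 myeloid cells among them, levels in mucosa myeloid classes are limited by counts.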
